A study of Homo sapiens with 54 samples.

Results

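The 59 tRNA genes of human chromosomes 16 and 17 were examined for chromatin-bound RNA polymerase III, its regulators, the progesterone receptor (PR) and acetylated histone in breast cancer cells given a progestin. They were all the nuclear tRNA genes of both chromosomes in the RefSeq gene table of GRCh38.p14 that carry a numbered symbol and lie beyond the first 100 kb, 26 on chromosome 16 and 33 on chromosome 17. The same rule gave 422 genes genome-wide, 363 of them on other chromosomes. The choice used positions and names only and no measured value.

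The cells were T47D, an established human breast cancer line that expresses PR. They were treated for 1 h with ethanol, the vehicle, or with R5020, a synthetic progestin, and both groups were otherwise labelled alike. Chromatin immunoprecipitation with sequencing was done with 8 antibodies, and each antibody and treatment had 3 libraries and 1 deposited peak list, so none of the values below has a replicate error and no test between treatments was possible. For 4 libraries titled R5020 (2 of POLR3C, 1 of POLR3G and 1 of POLR3GL) the treatment tag says ethanol, and the R5020 values of these 3 subunits rest on the titles.

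RNA polymerase III transcribes tRNA genes from promoter elements that lie within the gene, called the A box and the B box. The factor TFIIIC binds these boxes and brings TFIIIB, of which Brf1 is a subunit, to the DNA just upstream of the start, and TFIIIB in turn recruits the polymerase. POLR3A is the largest catalytic subunit, POLR3C belongs to a subcomplex that acts in initiation, and POLR3G and POLR3GL are alternative forms of another subunit of that subcomplex. Maf1 is a conserved repressor of the polymerase, PR is a hormone-activated transcription factor, and H3K27Ac (acetylated lysine 27 of histone H3) marks active promoters and enhancers.

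The genes were 71 to 88 bp long and lay at 23 places when genes less than 20 kb apart were counted as 1 cluster. These were 9 clusters with 45 genes and 14 genes on their own. By the symbols, they stood for 15 isotypes (the amino acid carried, with initiator and elongator methionine kept apart), 28 anticodons and 49 families, a family being genes that the nomenclature gives the same mature tRNA sequence. Of the 59, 17 lay inside a protein-coding gene and 13 lay within 1 kb of an end of one.

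The sequence tables used here have no entry for a tRNA gene itself, but 3 promoter windows of neighbouring genes hold most or all of a member. They are shown because they are the windows that hold at least 60 bases of a member. Their genes are one with polymerase, Brf1 and H3K27Ac but no PR or Maf1, one with POLR3A alone, and one with every protein except POLR3GL. The windows are RefSeq's GRCh38.p14 sequence, 300 bases each, on the plus strand, and capitals mark the bases of the tRNA gene. The first is the LOC100287175 window, chr16:636702-637001, with all 71 bases of TRG-CCC2-2. The second is the OR1F1 window, chr16:3187954-3188253, with all 72 bases of TRP-TGG3-5. The third is the POLR3E window, chr16:22297159-22297458, with 63 of the 82 bases of TRL-AAG2-4.
TRG-CCC2-2 window: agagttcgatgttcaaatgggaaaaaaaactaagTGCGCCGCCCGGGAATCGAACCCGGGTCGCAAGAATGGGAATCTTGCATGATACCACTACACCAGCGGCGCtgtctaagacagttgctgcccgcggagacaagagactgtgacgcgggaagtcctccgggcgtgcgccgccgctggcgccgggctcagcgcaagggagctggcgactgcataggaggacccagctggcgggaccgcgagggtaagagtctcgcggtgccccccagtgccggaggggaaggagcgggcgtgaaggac
TRP-TGG3-5 window: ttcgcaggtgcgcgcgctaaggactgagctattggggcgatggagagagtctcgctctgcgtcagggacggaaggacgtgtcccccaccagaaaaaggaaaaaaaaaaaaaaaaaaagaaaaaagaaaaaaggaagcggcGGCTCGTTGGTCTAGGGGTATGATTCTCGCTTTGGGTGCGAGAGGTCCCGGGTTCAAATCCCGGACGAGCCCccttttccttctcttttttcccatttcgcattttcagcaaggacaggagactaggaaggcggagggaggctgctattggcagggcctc
TRL-AAG2-4 window: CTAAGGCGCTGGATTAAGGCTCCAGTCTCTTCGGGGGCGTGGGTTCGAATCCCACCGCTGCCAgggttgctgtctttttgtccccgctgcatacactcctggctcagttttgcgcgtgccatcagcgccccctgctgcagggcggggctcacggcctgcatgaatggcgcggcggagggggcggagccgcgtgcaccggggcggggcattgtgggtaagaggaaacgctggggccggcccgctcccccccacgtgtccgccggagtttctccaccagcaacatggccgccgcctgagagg

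Both strands of these windows were searched for 6 motifs. The A box and B box of the TRG-CCC2-2 window both matched on the minus strand, the A box at positions 88 to 98 and the B box at 46 to 56, counted from the window's first base. In the TRL-AAG2-4 window the B box matched at 42 to 52 on the plus strand, and in the TRP-TGG3-5 window the A box matched at 148 to 158 and the B box had no match. The B box was present in 0.0826% of 35116 RefSeq promoter windows of this length, and the A box in 21.7%. TGTTCT, the core of hormone response elements, was searched with its reverse complement, had no match in the 3 windows and was present in 14.8% of all windows. The spaced form ACANNNTGT likewise had no match and was present in 5.37%. The TATA element TATAAA also had none and was present in 11.5%. CACGTG, present in 7.26% of windows, matched once, at position 250 of the TRL-AAG2-4 window. A match is a match of letters only, and its absence says nothing of what a factor binds.

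POLR3A was listed at almost all of these genes in both treatments. A gene was counted when a region of the list lay within 200 bp of it. By this measure 57 of the 59 genes had POLR3A with vehicle and the same 57 with R5020 (96.6%, 95% Wilson interval 88.5 to 99.1), against 85.3% and 85.1% of all 422 genes. The intervals given here cover counting error over genes only, and genes of 1 cluster can share a region: the 57 genes lay at 40 distinct regions in each list. On the other chromosomes the share was 83.5% (79.3 to 86.9) with vehicle. No depth could be read from the lists, which hold no read counts.

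The 2 genes without POLR3A were TRK-CTT8-1, in a cluster on chromosome 16, and TRG-CCC3-1, inside the gene of the autophagy kinase ULK2 on chromosome 17. Neither had a region of any antibody within 200 bp in either treatment. The nearest POLR3A region to TRK-CTT8-1 was 5602 bp away with vehicle and the nearest to TRG-CCC3-1 was 352111 bp away.

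The height of each POLR3A region was taken as the authors' fold enrichment over the caller's background, which was compared within 1 list only. With vehicle it ran from 9.26 to 58.0 over the 57 genes, with a median of 42.8, and with R5020 from 8.27 to 71.4 with a median of 51.2. Medians over every region of the 2 lists were 10.9 and 4.86. In the vehicle list the highest fold was held by 3 leucine tRNA genes: TRL-AAG2-4 beside POLR3E, and TRL-CAG2-1 and TRL-CAG2-2, which share 1 region near PLLP. In the R5020 list 6 members held the highest fold: these 3, the leucine gene TRL-TAG3-1, the arginine gene TRR-CCG1-3 and the threonine gene TRT-CGT2-1. Both lists have a ceiling that these genes reached. The fold of 58.0 was the highest of the vehicle list and was held by 14 of its regions, and the fold of 71.4 was the highest of the R5020 list, held by 20 regions, 5 of them at these genes. Folds at the ceiling cannot be ranked against each other.

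The lowest POLR3A folds were all on chromosome 16, most of them in its large cluster. With vehicle they were 9.26 at TRP-TGG3-5, 11.7 at TRK-CTT5-1 and 11.7 at TRP-CGG1-2. With R5020 they were 8.27 at TRK-CTT5-1, 8.32 at TRM-CAT2-1, a single elongator methionine gene near TLE7, and 10.3 at TRP-TGG3-5. The lowest fold still stood at the percentile of 45.6 of the vehicle list and 61.7 of the R5020 list, both of which include many regions away from tRNA genes.

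**Figure D1:**
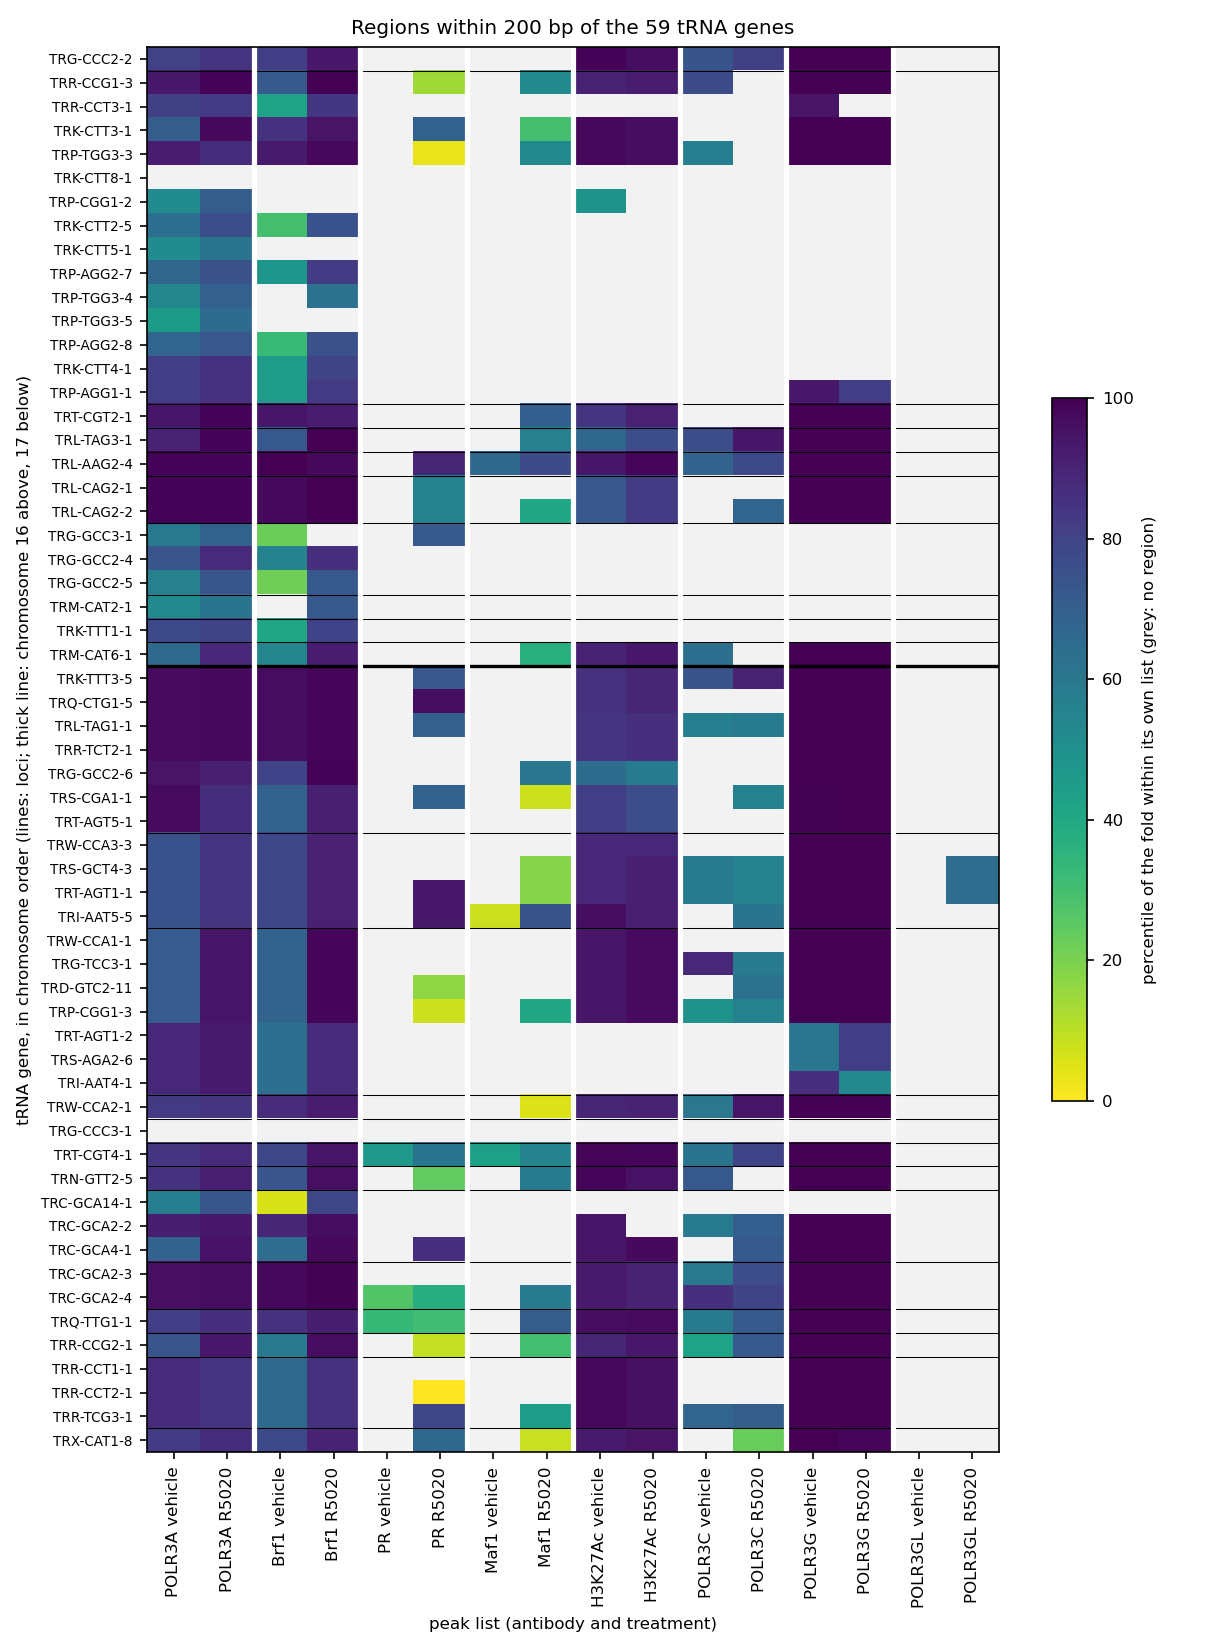
Regions within 200 bp of each of the 59 tRNA genes (rows, in chromosome order, chromosome 16 above the thick line) in the 16 peak lists (columns, antibody and treatment). Colour is the percentile of the region's fold within its own list, and grey means no region; POLR3A fills 57 rows in both treatments, while PR and Maf1 fill 3 rows each with vehicle and 24 and 22 rows with R5020.

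Brf1, the initiation factor, followed POLR3A at most genes. The vehicle list had it at 52 genes (88.1%, 77.5 to 94.1) and the R5020 list at 53 (89.8%, 79.5 to 95.3), against 71.1% and 73.2% of all 422 genes. Every gene with Brf1 also had POLR3A. The folds of Brf1 ran from 3.51 to 51.5 with vehicle (median 30.2) and from 5.99 to 91.0 with R5020 (median 67.1). The highest R5020 fold of the whole Brf1 list, 91.0, was at the arginine gene TRR-CCG1-3 in the chromosome 16 cluster, whose vehicle fold was 31.7. A fold of 89.4 followed among the members, at TRL-TAG3-1 and at the region shared by TRL-CAG2-1 and TRL-CAG2-2. In the vehicle list the top gene was TRL-AAG2-4 with 51.5, followed by the cysteine genes TRC-GCA2-3 and TRC-GCA2-4 with 50.1 at a shared region.

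Only 3 genes differed between the 2 Brf1 lists, and their folds were low. TRG-GCC3-1, a glycine gene inside VAC14, had Brf1 with vehicle (fold 5.87) and none with R5020. TRP-TGG3-4 had a Brf1 fold of 5.99 with R5020 and none with vehicle, and TRM-CAT2-1 a fold of 8.23 with R5020 and none with vehicle. Of all 422 genes, 3.32% had Brf1 in the R5020 list alone and 1.18% in the vehicle list alone. TRP-CGG1-2, TRK-CTT5-1 and TRP-TGG3-5 had POLR3A in both treatments and Brf1 in neither. With R5020 the 4 of 59 genes that had POLR3A without Brf1 were these 3 and TRG-GCC3-1. Over all 422 genes, 50 were in this state (11.8%). At the other end of the vehicle Brf1 list, the lowest folds were 3.51 at TRC-GCA14-1, 5.80 at TRG-GCC2-5 and 5.87 at TRG-GCC3-1.

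**Figure D2:**
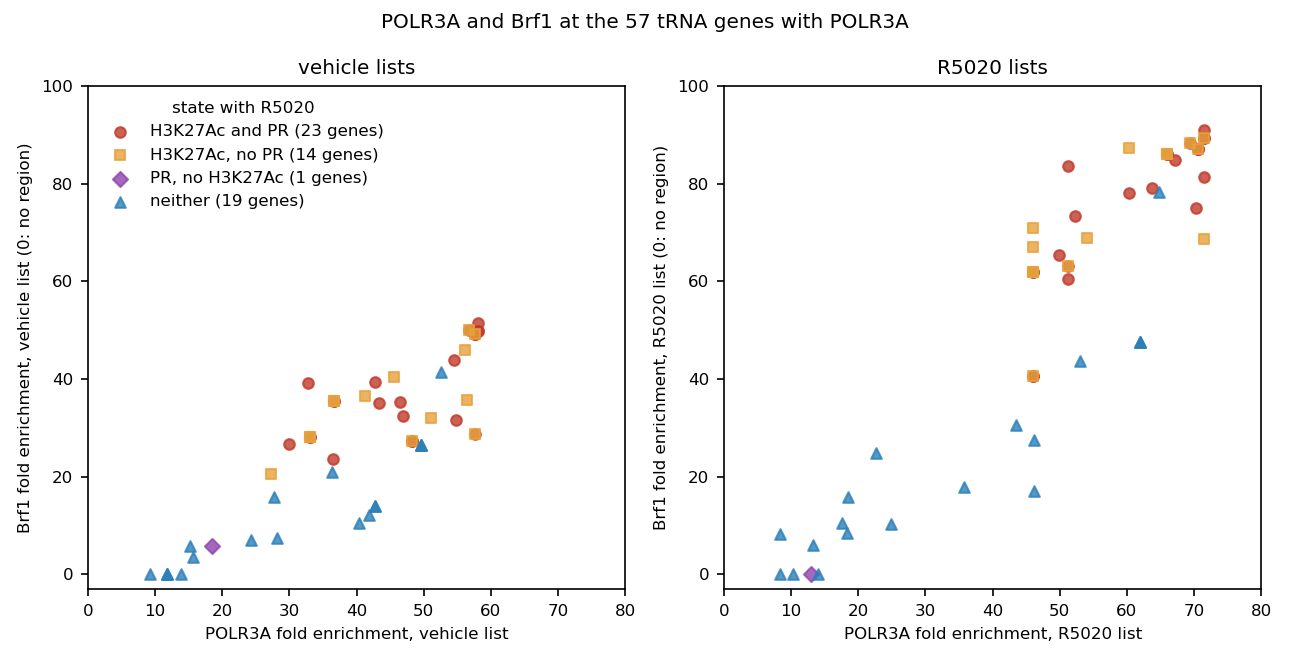
Fold enrichment of POLR3A (horizontal) against Brf1 (vertical; 0 where no Brf1 region was listed) at the 57 genes with POLR3A, with vehicle at the left and R5020 at the right; each point is a gene, and colour and shape give H3K27Ac and PR with R5020. The 20 genes without H3K27Ac lie at the lower POLR3A folds with R5020 (median 23.8) and the 37 genes with it at the higher ones (median 63.7); genes of 1 region overlie each other.

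Position relative to the gene separated these proteins. Among genes that were the only member under their region, the R5020 summit of POLR3A lay a median of 7.00 bp from the middle of the gene, and all 31 such genes were within 100 bp. The Brf1 summit lay a median of 46.0 bp away with R5020 (at most 55 bp, 29 genes), and with vehicle it was at most 62 bp away over 26 genes. With genes of 71 to 88 bp, this puts most Brf1 summits near or just past one end of the gene. The Brf1 summit was on the same side of the gene in both treatments for 24 of 25 genes. The gene table gives no strand. For TRG-CCC2-2, whose A and B boxes matched on the minus strand, the Brf1 summit lay 44 bp (vehicle) and 48 bp (R5020) above the middle in coordinate, on the side of the A box. For TRL-AAG2-4, whose B box matched on the plus strand, it lay at -54 bp and -52 bp, on the side away from the B box.

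The summits of PR and H3K27Ac lay farther out. For PR with R5020 the median distance was 242 bp over 20 genes alone under a region, with a largest value of 960 bp at TRL-AAG2-4. For H3K27Ac it was 490 bp over 19 genes, and none of the 37 genes with H3K27Ac had a summit within 100 bp. Maf1 lay nearer, with a median of 42.0 bp over 20 genes, and POLR3C and POLR3G lay at medians of 22.0 bp and 14.0 bp. POLR3A and Brf1 regions covered the whole gene at all 57 and 53 genes. Maf1 regions did so at 20 of 22 genes and PR regions at 9 of 24. H3K27Ac regions with R5020 covered the whole gene at 19 of 37 genes and overlapped part of it at 5. At 6 of the 37 they lay on 1 side only. At 7 of the 37, separate acetylated regions stood on both sides with none over the gene, as at TRT-CGT2-1 and TRG-GCC2-6. With vehicle, 25 of 39 genes were wholly covered by H3K27Ac and 3 were flanked in this way. Coverage was not counted over all tRNA genes.

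**Figure D3:**
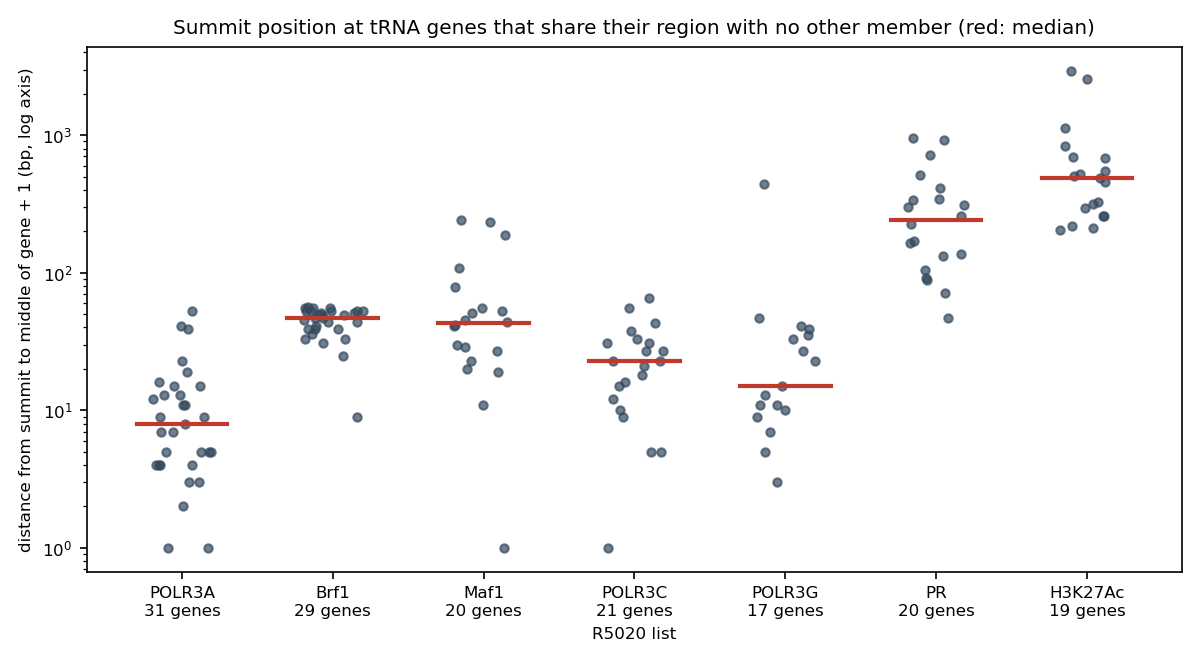
Distance from the region's summit to the middle of the tRNA gene (bp plus 1, log axis) in the R5020 lists, for genes that share their region with no other member; each point is a gene and the red line is the median. POLR3A points lie within 52 bp and Brf1 points within 55 bp, while the PR points reach 960 bp and the H3K27Ac points 2934 bp.

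PR was listed at few of these genes with vehicle and at 24 with R5020. The vehicle count was 3 of 59 (5.08%, 1.74 to 13.9) and the R5020 count 24 of 59 (40.7%, 29.1 to 53.4), against 2.13% and 25.4% of all 422 genes. On the other chromosomes the R5020 share was 22.9% (18.8 to 27.5). No member had PR with vehicle alone (0% of all 422 genes), 3 had it in both lists (2.13%) and 21 with R5020 alone (23.2%). The R5020 genes were 7 on chromosome 16 and 17 on chromosome 17. The 2 PR lists differ greatly in length, with 6663 regions with vehicle and 173129 with R5020. When each list was limited to its 6663 regions of highest -log10 q, no member had PR with R5020 and the vehicle count was still 3. That limit is far stricter for the longer list, where it leaves out even the member at -log10 q of 249. At a shared threshold, a fold of at least 5 gave 0 genes with vehicle and 15 with R5020, and a -log10 q of at least 5 gave 2 and 19.

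The 3 genes with PR in both treatments had low folds. The threonine gene TRT-CGT4-1, 11863 bp from an end of RAB11FIP4, had 3.91 with vehicle and 7.45 with R5020. The glutamine gene TRQ-TTG1-1 had 3.58 and 4.39, and the cysteine gene TRC-GCA2-4 near PLXDC1 had 3.43 and 4.84. Folds of separate lists are set side by side here and were not compared.

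With R5020 the PR folds at these genes ran from 2.15 to 35.5 with a median of 7.96, and the median of the whole list was 5.90. The highest was 35.5, at the glutamine gene TRQ-CTG1-5 (chr17:8119752-8119823), where the region chr17:8119467-8119907 had its summit 90 bp below the middle of the gene and stood at the percentile of 96.4 of its list. Next came 27.5 at a region beside BORCS6 that served both TRT-AGT1-1 and TRI-AAT5-5, with its summit 252 bp from the middle of TRI-AAT5-5 and 686 bp from that of TRT-AGT1-1. TRL-AAG2-4 had 21.7, from a region of 1562 bp that begins before the tRNA gene and runs over the start of POLR3E, which encodes another polymerase III subunit. TRC-GCA4-1, a cysteine gene 695 bp from LASP1, had 18.1, and the arginine gene TRR-TCG3-1 inside KCTD2 had 12.7.

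A second group of PR folds lay between 6.66 and 10.3. They belonged to the lysine genes TRK-TTT3-5 (10.3) and TRK-CTT3-1 (9.05), the glycine gene TRG-GCC3-1 (10.0), the leucine gene TRL-TAG1-1 (9.16), the serine gene TRS-CGA1-1 (8.87), the initiator methionine gene TRX-CAT1-8 (8.48), TRT-CGT4-1 and the pair TRL-CAG2-1 and TRL-CAG2-2 (6.66). The remaining 9 genes had folds under 5, down to 2.80 at TRP-TGG3-3 and 2.15 at TRR-CCT2-1, which was at the percentile of 0.178 of the list. PR summits lay within 100 bp of the gene's middle at 4 genes, TRQ-CTG1-5, TRL-TAG1-1, TRS-CGA1-1 and TRR-TCG3-1. Of the others, 10 were farther but within 300 bp, 5 were within 500 bp and 5 were beyond 500 bp. The PR region touched the gene itself at 18 of the 24.

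Among the 35 genes without a PR region with R5020, the nearest one lay 209 to 93861 bp away, with a median of 2239 bp. It was within 1 kb for 13 of them. With vehicle the median for 56 genes was 52770 bp. The farthest in each case was TRK-TTT1-1, a single lysine gene deep inside ZFHX3.

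Maf1, the repressor, showed counts much like those of PR. The vehicle list had it at 3 genes (5.08%, 1.74 to 13.9) and the R5020 list at 22 (37.3%, 26.1 to 50.05), against 3.32% and 22.3% of all 422 genes. None had Maf1 with vehicle alone (0.237% of all 422 genes), 3 had it in both lists (3.08%) and 19 with R5020 alone (19.2%). The genes in both lists were TRL-AAG2-4 (fold 4.42 with vehicle and 5.92 with R5020), TRT-CGT4-1 (3.71 and 4.51) and TRI-AAT5-5 (2.78 and 5.70). As for PR, lists of equal length (the 3049 regions of highest -log10 q) left 3 genes with vehicle and 0 with R5020. At a -log10 q of at least 5 in both lists the counts were 1 and 13.

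All Maf1 folds at these genes were low. With R5020 they ran from 2.71 to 5.92 with a median of 4.21, close to the list's own median of 4.30, while the list reached 44.2 elsewhere. The highest were at TRL-AAG2-4 (5.92), TRI-AAT5-5 (5.70), TRQ-TTG1-1 (5.37) and the threonine gene TRT-CGT2-1 (5.33). These 4 were the only ones at a fold of at least 5. The lowest were at TRW-CCA2-1 (2.71), TRS-CGA1-1 (2.84) and TRX-CAT1-8 (2.89). The genes without Maf1 with R5020 lay 235 to 306590 bp from the nearest Maf1 region, with a median of 6086 bp.

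PR and Maf1 often lay at the same gene, among the members as over all genes with POLR3A. With R5020, PR was at 72.7% of members with Maf1 (51.8 to 86.8) and at 66.0% of all genes with it (55.9 to 74.7). Maf1 was at 66.7% of members with PR (46.7 to 82.0) and at 57.9% of all genes with it (48.5 to 66.9). With R5020, 16 genes had both (14.7% of all 422 genes), 8 had PR without Maf1 (10.7%), 6 had Maf1 without PR (7.58%) and 29 had neither (67.1%). The 16 included TRR-CCG1-3, TRK-CTT3-1 and TRP-TGG3-3 of the chromosome 16 cluster, TRL-AAG2-4, TRI-AAT5-5 and TRX-CAT1-8. PR without Maf1 was seen at TRQ-CTG1-5, the gene of highest PR fold, at its neighbours TRK-TTT3-5 and TRL-TAG1-1, and at TRL-CAG2-1, TRG-GCC3-1, TRD-GTC2-11, TRC-GCA4-1 and TRR-CCT2-1. Maf1 without PR was seen at TRT-CGT2-1, TRL-TAG3-1, TRM-CAT6-1, TRG-GCC2-6, TRS-GCT4-3 and TRW-CCA2-1. The nearest PR region to TRL-TAG3-1 lay 209 bp away, just past the 200 bp limit. At a -log10 q of at least 5 for both proteins, 7 genes had both.

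More than 60% of the genes had an H3K27Ac region within 200 bp, but fewer had one over the gene. The vehicle list had it at 39 (66.1%, 53.4 to 76.9) and the R5020 list at 37 (62.7%, 49.95 to 73.9), against 41.0% and 37.7% of all 422 genes. When the region had to overlap the gene, the counts were 27 and 24. No member had the mark with R5020 alone (1.18% of all 422 genes), and 2 had it with vehicle alone (4.50%). These were TRP-CGG1-2, with a fold of 3.62, and TRC-GCA2-2, where the vehicle region was 8936 bp long and also served TRC-GCA4-1. The H3K27Ac folds ran from 3.62 to 20.6 with vehicle and from 3.99 to 21.6 with R5020, and the highest were at TRG-CCC2-2 with vehicle (20.6) and TRL-AAG2-4 with R5020 (21.6).

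Within 200 bp, nearly all genes with PR and all with Maf1 also had H3K27Ac. With R5020, PR was at 23 of the 37 genes with POLR3A and H3K27Ac (62.2%, 46.1 to 75.9) and at 1 of the 20 with POLR3A and no H3K27Ac (5.00%, 0.888 to 23.6). Over all 422 genes the corresponding shares were 57.6% and 7.66%, both near those of the members. Having both PR and H3K27Ac was seen at 21.6% of all 422 genes, and PR without H3K27Ac at 3.79%. When both regions had to overlap the gene, 18 members had PR and 11 of them H3K27Ac as well. At 200 bp, the member with PR and no H3K27Ac was TRG-GCC3-1 inside VAC14. Its PR region (fold 10.0, chr16:70777697-70778129) had its summit 343 bp from the middle of the gene, and its POLR3A fold was 18.5 with vehicle and 12.9 with R5020. Maf1 was at 22 of the 37 acetylated genes (59.5%, 43.5 to 73.7) and at 0 of the other 20. Over all genes with POLR3A, Maf1 was at 90 of 158 acetylated genes (49.2 to 64.4%) and at 4 of 209 others (1.91%), again near the members' shares. Of all 422 genes, 21.3% had Maf1 and H3K27Ac. No member had H3K27Ac with R5020 alone. The 23 genes with PR and H3K27Ac and the 22 with Maf1 therefore all had H3K27Ac with vehicle too, which is not a separate result.

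The genes that were acetylated with R5020 and had neither PR nor Maf1 numbered 8 (9.24% of all 422 genes): TRG-CCC2-2, TRR-TCT2-1, TRT-AGT5-1, TRW-CCA3-3, TRW-CCA1-1, TRG-TCC3-1, TRC-GCA2-3 and TRR-CCT1-1. Of these, 7 belonged to clusters, and since all 9 clusters had PR at some gene, another gene of each had it. The eighth is TRG-CCC2-2, whose window is printed above, with folds of 46.0 for POLR3A, 70.9 for Brf1 and 17.2 for H3K27Ac with R5020. Its nearest R5020 Maf1 region lay 235 bp away, just past the 200 bp limit. PR regions lay 248 bp from TRW-CCA3-3, 293 bp from TRC-GCA2-3 and 374 bp from TRR-TCT2-1, and a Maf1 region 362 bp from TRT-AGT5-1. For TRR-CCT1-1, TRG-TCC3-1 and TRW-CCA1-1 the nearest PR region was at 501, 622 and 1301 bp.

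The POLR3A folds differed along the same line. With R5020 the median POLR3A fold was 63.7 over the 37 acetylated genes (range 46.0 to 71.4) and 23.8 over the 20 others (range 8.27 to 64.8). By distinct region these medians were 60.3 and 18.4. For PR the medians were 64.8 with it and 46.0 without it, but nearly all genes with PR were acetylated. Among acetylated genes the POLR3A medians with R5020 were 65.9 with PR and 57.2 without, and 63.7 and 57.2 by distinct region. With vehicle they were 48.3 and 46.9 by gene, and 46.9 and 49.6 by distinct region. Some folds below the ceiling were equal at separate regions, which limits a ranking. The R5020 fold of 46.0, for example, was at TRG-CCC2-2, TRW-CCA2-1 and the shared regions beside BORCS6 and inside KCTD2. The Brf1 medians with R5020 were 79.1 at acetylated genes and 21.4 at the others. The order by acetylation was the same in the vehicle lists, where the POLR3A medians were 48.3 and 27.9 for genes with and without R5020 acetylation. The 2 ranges overlap through 7 genes without H3K27Ac: TRC-GCA2-2, the 3 genes inside CTC1, TRG-GCC2-4, TRK-CTT4-1 and TRP-AGG1-1.

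POLR3C, POLR3G and POLR3GL came from lists whose R5020 libraries carry the label conflict. In the vehicle list POLR3C was at 21 genes (35.6%, 24.6 to 48.3) and in the R5020 list at 23 (39.0%, 27.6 to 51.7), against 23.5% and 27.7% of all 422 genes. Its folds were low, from 2.23 to 5.95 over both lists. The 4 genes with POLR3C in the vehicle list alone (2.37% of all 422 genes) were TRR-CCG1-3 (fold 4.55), TRP-TGG3-3 (3.67), TRM-CAT6-1 (3.94) and TRN-GTT2-5 (4.33). The 6 in the R5020 list alone (6.64%) were TRL-CAG2-2 (4.03), TRS-CGA1-1 (3.56), TRI-AAT5-5 (3.79), TRD-GTC2-11 (3.85), TRC-GCA4-1 (4.32) and TRX-CAT1-8 (2.23). All 6 had PR with R5020, as did 3 of the 4 in the vehicle list alone, TRM-CAT6-1 being the one without. Among genes with POLR3C with R5020, PR was at 69.6% of members and 54.7% over all genes. No such share was computed for genes with POLR3C in 1 list alone. All 21 vehicle genes had H3K27Ac in the vehicle list (22.0% of all 422 genes had both), and with R5020 all but TRC-GCA2-2 did (POLR3C without H3K27Ac was at 2.37% of all genes).

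The list of POLR3G covered 43 genes in vehicle cells (72.9%, 60.4 to 82.6) and 42 in R5020 cells (71.2%, 58.6 to 81.2), against 51.2% and 48.1% of all 422 genes. It was at all 37 genes acetylated with R5020 (both were at 37.0% of all 422 genes). The 5 others with POLR3G and no H3K27Ac in the R5020 lists (11.1% of all genes) were TRP-AGG1-1, TRC-GCA2-2 and the 3 inside CTC1. TRR-CCT3-1 alone had POLR3G with vehicle and not with R5020 (fold 3.99), a state of 3.79% of all genes. The POLR3G folds had a median of 9.32 with R5020, and its median percentile in that list was 99.9, so these genes hold some of the highest regions of a long list.

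POLR3GL was nearly absent. It was listed at 0 of 59 genes with vehicle, with a Wilson interval that reaches 6.11%. Taking a count of 0 to allow 3 counts gives 5.08%. With R5020 it was at 2 genes (3.39%, 0.935 to 11.5), and the shares of all 422 genes were 0% and 2.37%. Both R5020 genes, TRS-GCT4-3 and TRT-AGT1-1, lay at 1 region of fold 3.15 beside BORCS6.

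The largest cluster runs from near ZNF213 into OR1F1 on chromosome 16 (chr16:3150674-3192060), with 14 genes over 41.4 kb. Among its first 4 genes, 3 stood apart from the rest. TRR-CCG1-3, TRK-CTT3-1 and TRP-TGG3-3 had Brf1 folds of 91.0, 75.0 and 83.6 with R5020. They were the only ones of the cluster with PR, Maf1 or R5020 acetylation within 200 bp. Between them lies TRR-CCT3-1, with a POLR3A fold of 43.5 and a Brf1 fold of 30.5 and none of these. After TRK-CTT8-1, which had no region, the POLR3A folds from TRP-CGG1-2 to TRP-AGG2-8 lay between 8.27 and 24.8 with R5020, and Brf1 was missing with R5020 at 3 of those 7 genes. At the far end TRK-CTT4-1 and TRP-AGG1-1 shared a POLR3A region of fold 46.1. The nearest R5020 PR region to TRK-CTT4-1 lay 253 bp away.

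**Figure D4:**
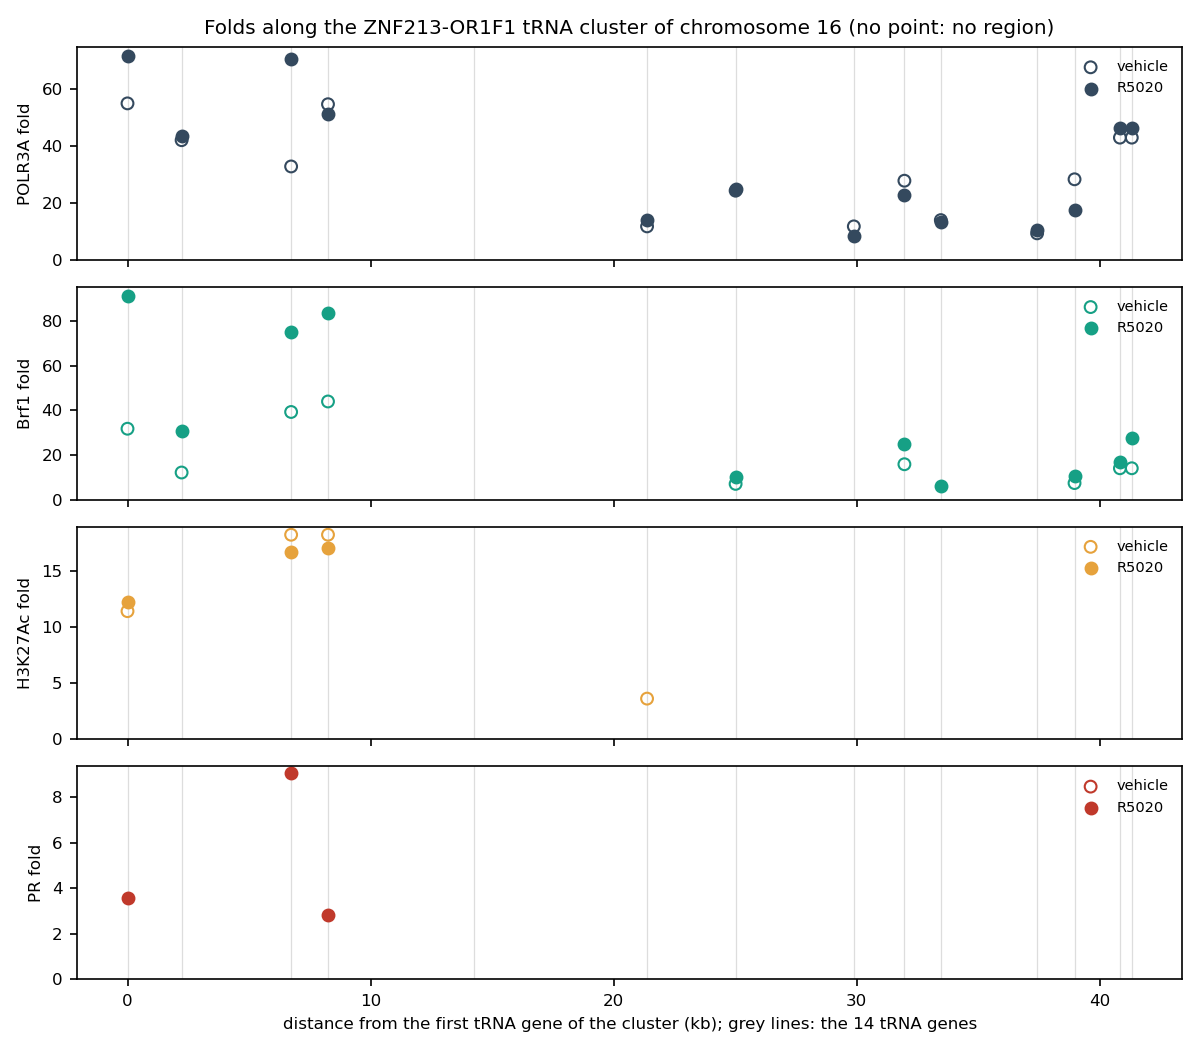
Folds of POLR3A, Brf1, H3K27Ac and PR (vertical, 1 panel each, each on its own scale) at the 14 tRNA genes of the cluster from ZNF213 into OR1F1, by distance from the first gene in kb; open circles are vehicle, filled circles R5020, grey lines the genes, and a missing circle means no region. PR appears at 3 genes in the first 10 kb, with R5020 only, at the same genes as the R5020 H3K27Ac regions.

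Chromosome 17 holds 3 clusters within a short stretch of its short arm. The cluster around HES7, from ALOXE3 to PER1 (chr17:8119155-8139525), has 7 genes over 20.4 kb, all with POLR3A, Brf1, H3K27Ac and POLR3G in both treatments. Its PR regions were at TRK-TTT3-5, TRQ-CTG1-5, TRL-TAG1-1 and TRS-CGA1-1, from 4 separate regions, and its Maf1 regions at TRG-GCC2-6 and TRS-CGA1-1. PER1, a circadian clock gene that steroid hormones are known to induce, flanks the cluster. The BORCS6 cluster has 4 genes in 1.31 kb that share 1 POLR3A region (fold 46.0 with R5020) and 1 Brf1 region (61.9), so these folds cannot be divided among them. PR there was at TRT-AGT1-1 and TRI-AAT5-5 and Maf1 at TRS-GCT4-3, TRT-AGT1-1 and TRI-AAT5-5. The RefSeq hairpin of MIR4521 begins inside TRS-GCT4-3 and shares 3 bases with it (chr17:8186945-8187004), so reads there cannot be assigned to one of them.

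The cluster of LINC00324 and CTC1 has 7 genes in 6.20 kb and falls into a pair of blocks. TRW-CCA1-1, TRG-TCC3-1, TRD-GTC2-11 and TRP-CGG1-3, over the long noncoding RNA gene LINC00324, shared a POLR3A region (fold 65.9 with R5020) and an H3K27Ac region (18.3). PR was at TRD-GTC2-11 (3.70) and TRP-CGG1-3 (3.18), and Maf1 at TRP-CGG1-3 (3.95). TRT-AGT1-2, TRS-AGA2-6 and TRI-AAT4-1, inside CTC1, shared a POLR3A region of fold 61.9 and a Brf1 region of fold 47.6 with R5020, and had no PR, Maf1, H3K27Ac or POLR3C in either treatment.

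The smaller clusters also split. Near LASP1, TRC-GCA4-1 had PR and TRC-GCA2-2 and TRC-GCA14-1 had none. Inside KCTD2, TRR-TCG3-1 had PR (12.7) and Maf1 (4.09), TRR-CCT2-1 had PR alone (2.15) and TRR-CCT1-1 neither, under 1 shared POLR3A region. Inside VAC14, TRG-GCC3-1 had PR while TRG-GCC2-4 and TRG-GCC2-5 had none, and no gene of that cluster had H3K27Ac or POLR3G.

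Counted by place, PR with R5020 was in all 9 clusters and at 6 of the 14 single genes, and Maf1 in 7 clusters and at 10 single genes. By genes, Maf1 was at 12 of the 45 clustered genes (26.7%) and 10 of the 14 single ones (71.4%), while PR was at 18 (40.0%) and 6 (42.9%). The contrast was not particular to Maf1: POLR3C with vehicle was at 26.7% and 64.3%, and H3K27Ac with R5020 at 57.8% and 78.6%. POLR3A in both treatments, Brf1 with vehicle and POLR3GL with R5020 went the other way. The largest cluster alone gave 14 clustered genes, with Maf1 and H3K27Ac each at 3 with R5020. Such shares were not computed over all tRNA genes, and the contrast was not tested. PR and Maf1 were both found at 13 of the 23 places, and 4 places, all of them single genes, had neither. These were TRG-CCC2-2, TRM-CAT2-1, TRK-TTT1-1 and TRG-CCC3-1. The nearest Maf1 region to TRG-CCC2-2, at 235 bp, was just past the 200 bp limit.

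By isotype, PR with R5020 was found in 13 of the 15 present and Maf1 in 14. The 2 without PR were tryptophan (0 of 3 genes) and elongator methionine (0 of 2), and both had Maf1 at 1 gene. Aspartate, with 1 gene, had PR and no Maf1. Leucine genes had PR at 4 of 5, and all 5 were acetylated; on other chromosomes PR was at 5 and H3K27Ac at 10 of 27 leucine genes. Proline genes, the most numerous, had PR at 2 of 8, the other 6 lying in the chromosome 16 cluster without acetylation with R5020. On other chromosomes PR was at 6 of 12 proline genes. Tryptophan and elongator methionine genes elsewhere had PR at 1 of 4 and 3 of 9.

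Of the 5 cysteine genes, which lie on chromosome 17, all had POLR3A and Brf1 with R5020, 3 had H3K27Ac and 2 had PR. Of the 24 cysteine genes on other chromosomes, 13 had POLR3A, 6 had Brf1, 0 had H3K27Ac and 1 had PR with R5020. No test was made of this difference, which was noticed among 15 isotypes.

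**Figure D5:**
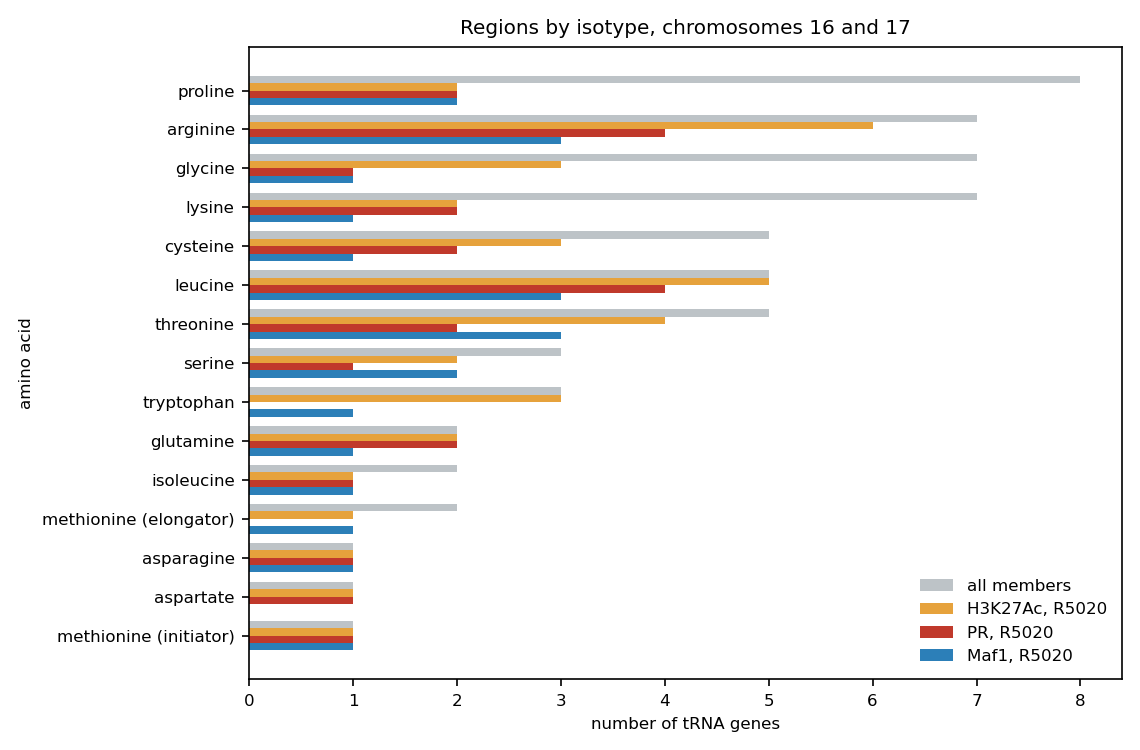
Number of tRNA genes of chromosomes 16 and 17 by amino acid (grey), and of those with H3K27Ac, PR and Maf1 regions with R5020 (coloured bars). Leucine has PR at 4 of 5 genes and proline at 2 of 8; tryptophan and elongator methionine have no PR bar.

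Genes of 1 family, which encode the same mature tRNA by their names, often differed in state. Reads from such near-identical copies can be hard to assign to 1 gene, and how they were treated is not given in the sources used here. Of the TRP-TGG3 genes, TRP-TGG3-3 had PR, Maf1 and H3K27Ac with R5020 and POLR3A at 51.2, whereas TRP-TGG3-4 and TRP-TGG3-5 had POLR3A at 13.2 and 10.3 and none of the others. TRP-CGG1-3 on chromosome 17 had PR and Maf1, under a POLR3A region of fold 65.9 shared with other genes of its cluster. TRP-CGG1-2 on chromosome 16 had POLR3A at 14.0 with neither. TRT-AGT1-1 had PR, Maf1 and POLR3C, and TRT-AGT1-2 had none of them. Their POLR3A regions with R5020 (folds of 46.0 and 61.9) were each shared with other genes, so these folds do not compare the 2 genes. The TRC-GCA2 genes all had POLR3A folds of at least 64.8 with R5020, and TRC-GCA2-4 alone of them had PR and Maf1. Of 7 families with at least 2 members here, TRL-CAG2 alone had PR at every member, from 1 shared region.

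Marker genes were looked up beside the label of the cells. H3K27Ac regions lay within 1 kb of an end of 7 of 7 luminal breast genes (ESR1, PGR, GATA3, FOXA1, KRT8, KRT18 and KRT19) in both treatments. Of 5 basal or mesenchymal genes, TP63 and ZEB1 had such a region in both treatments and VIM with R5020, while KRT5 and KRT14 had none. PR regions lay within 10 kb of 4 of 5 progestin-responsive genes with vehicle and 5 of 5 with R5020.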

How the data were processed

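Per the submitters' processing notes, cutadapt, Bowtie2, MACS2 and the build hg38 were used; their settings, the control and how replicates were combined are not given in the sources used here. The authors deposited 16 narrowPeak lists, 1 per antibody and treatment, from 48 ChIP libraries; 6 input libraries had no file used here. Each row gives a fold, a ratio of signal over background, and the -log10 of a q-value, both the authors' values. Read depth is unknown.

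Samples were grouped by title. Regions on chromosomes 1 to 22, X and Y were set against the RefSeq table of GRCh38.p14, with all 443 nuclear tRNA genes reduced to 422. A gene's fold and summit are those of its highest region within 200 bp. Shares have 95% Wilson intervals; a count of 0 allows 3 counts. Counting was tested on simulated data. Python 3.11.15, pandas 2.3.3, numpy 2.4.6, scipy 1.17.1 and matplotlib 3.10.9 were used.

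Members and lists were chosen with earlier results of these data known. Genes were named where they had PR or Maf1, where POLR3A, Brf1, POLR3C or H3K27Ac differed between lists, where POLR3A was missing, or among the 3 highest or lowest POLR3A or Brf1 folds; other members are named as cluster or family neighbours. The rule to show the windows of highest PR fold could not be met, so windows holding at least 60 bases of a member are shown.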

Additional observations from a re-analysis of the deposited data

How the results depend on the processing

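Of 120 alternative values for 35 results, 95 stayed within 1.5 times the reported count and 25 did not; these 25 follow, and the cause was not tested. With a distance of 1000 bp in place of 200 bp, PR was at 5 genes with vehicle and 37 with R5020, Maf1 at 5 with vehicle, POLR3GL at 4 with R5020, PR and Maf1 together at 25, and POLR3G with R5020 at 40 distinct regions. With overlap of the gene required (0 bp), H3K27Ac with R5020 was at 24 genes, POLR3GL at 1, and PR with H3K27Ac at 11; distinct regions were 17 for PR with R5020 and 18 for H3K27Ac in each treatment. At a fold of at least 5, PR was at 0 and 15 genes with vehicle and R5020, Maf1 at 0 and 4, POLR3C at 2 and 3, and POLR3GL with R5020 at 0. At a -log10 q of at least 5, Maf1 was at 1 and 13 genes, POLR3GL with R5020 at 0, and PR and Maf1 together at 7. With equal numbers of top regions, PR and Maf1 with R5020 were each at 0 genes, a limit that is far stricter for these long lists than for the vehicle lists. Counts for POLR3A and Brf1 stayed within 1.5 times under each alternative run. No paired analysis was possible because each list pools its replicates and carries no replicate number, and no replicate could be left out for the same reason. The R5020 lists of PR and Maf1 are much longer than the vehicle lists, and since they hold no read counts, the part of depth in this was not tested.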

Other observations

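As a comparison outside the tRNA genes, 13 other genes transcribed by polymerase III were looked up by the same distance. All 13 had POLR3A in both treatments. Brf1 was at 6 in both: the signal recognition particle RNA genes RN7SL1 and RN7SL2, the vault RNA genes VTRNA1-1, VTRNA1-2 and VTRNA1-3, and BCYRN1. It was not listed at RN7SK, RMRP, RPPH1, RNU6ATAC or the Y RNA genes RNY1, RNY3 and RNY4, most of which are known to have promoters upstream of the gene that use Brf2 in place of Brf1. PR was at 2 of the 13 with vehicle (RN7SL1 and RN7SL2) and 9 with R5020, and Maf1 at 1 (RN7SK) and 5. POLR3G was at 11 in both treatments, and POLR3GL at 0 and 1 (VTRNA1-2).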
